A study of Mus musculus with 6 samples.

Results

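The genes that make, sense and clear extracellular adenosine, together with the ion channels that sense ATP, were examined in Tregs sorted from B16 melanoma tumors. The 9 genes were taken by name: *Entpd1*, *Nt5e*, *Adora2a*, *Ada*, *Adk*, *Slc29a1*, *Dpp4*, *P2rx7* and *P2rx4*. All 9 had values among the 12153 genes measured. The rule that names them uses no measured value, but they were chosen with earlier results of these data known. RNA-Seq was done on 6 libraries, 3 per genotype, called control and Nr3c1 Foxp3-Cre here, with tumors collected at day 15. The labels give the control mice as Nr3c1-flox and the other group as Nr3c1-flox with a Foxp3-YFP/Cre allele. Both groups therefore carry floxed *Nr3c1*, the gene for the glucocorticoid receptor (GR), and Cre driven by the *Foxp3* promoter deletes it in Tregs of the second group. The labels describe sorting of CD4+CD25+ cells, the study's methods describe sorting by Foxp3-YFP, and the YFP/Cre allele is named for the second group alone, so genotype and any difference in the sort cannot be told apart. Age, sex and the number of mice behind each library are not given in the labels, and nothing in them says that the libraries came from separate animals, so that p-values measure the spread between these libraries.

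ATP released by stressed or dying cells is a danger signal. CD39 removes phosphates from ATP and ADP to give AMP, CD73 turns AMP into adenosine, and adenosine acts through receptors on T cells that raise cAMP and restrain effector function. Tregs are known for carrying CD39, and in mice also CD73, on their surface. Adenosine is removed by uptake through nucleoside transporters, by phosphorylation to AMP and by deamination to inosine. The comparison asks how the transcripts of CD39, CD73 and the rest of the pathway differed between control and GR-deficient Tregs. The values are RNA levels and do not measure surface protein. By flow cytometry, the study reports less surface CD39 on GR-deficient Tregs of B16 tumors. It reports less CD73 on Tregs in another comparison, of B16 tumors that lacked the gene *Hsd11b1*.

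Of the 9 genes, the transcripts of CD73 and of the adenosine receptor encoded by *Adora2a* separated the groups. *Nt5e*, which encodes CD73, was 1.47-fold higher in Nr3c1 Foxp3-Cre Tregs, and *Adora2a* was 1.28-fold lower. *Entpd1*, which encodes CD39, the 4 genes grouped under clearance and both ATP channels had overlapping groups. None of the 9 passed limma's moderated test after Benjamini-Hochberg adjustment over all genes, with an adjusted p of 1.0 for each, against 7 genes, or 0.0576%, called among all genes. At an unadjusted p under 0.05, 2 of the 9 were called, 1 higher and 1 lower, against 3.26% of all genes (1.61% higher and 1.65% lower). The groups did not overlap for the same 2 genes, against 7.41% of all genes (3.69% higher and 3.73% lower). Because the 9 were chosen with earlier results of these data known, these shares are not an independent comparison. The median log2 difference of the 9 was 0.014, and their median absolute log2 difference of 0.11 was as small as that of all genes, also 0.11.

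**Figure D1:**
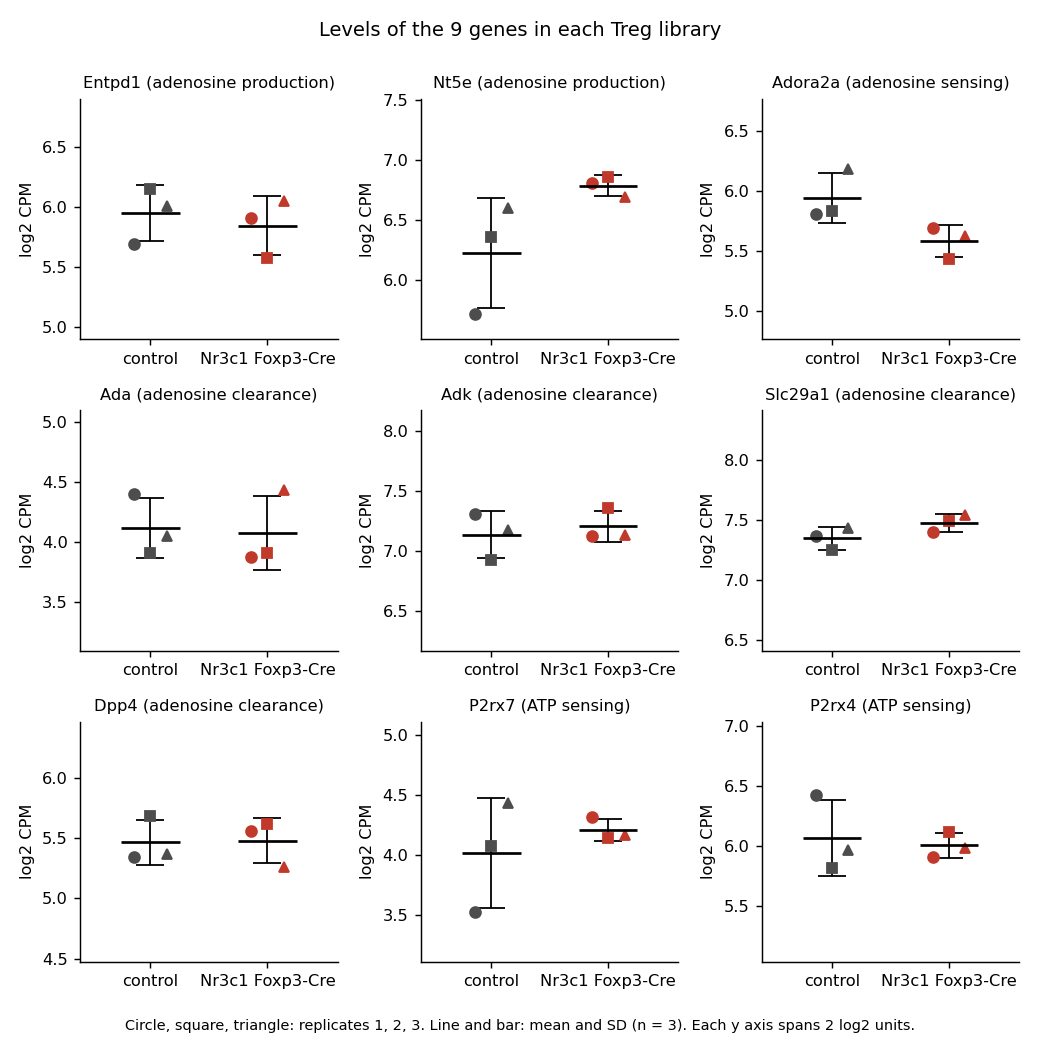
Log2 CPM (y axis) of each of the 9 genes in the 3 control (gray) and 3 Nr3c1 Foxp3-Cre (red) libraries, with the mean and SD of each group and a y axis that spans 2 log2 units in every panel. The red points lie above all gray points for Nt5e and below all gray points for Adora2a, and the groups overlap in the other 7 panels.

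The enzymes that produce adenosine were both well expressed, and their differences between groups had opposite signs. *Entpd1* (ENSMUSG00000048120.16, chromosome 19 of mm10, from 40612366 to 40741602) hydrolyzes ATP and ADP outside the cell. It was at 5.69, 6.15 and 6.0 log2 CPM in control replicates 1, 2 and 3 and at 5.91, 5.57 and 6.05 in Nr3c1 Foxp3-Cre replicates 1, 2 and 3. The groups overlapped from 5.69 to 6.05, with the lowest value in an Nr3c1 Foxp3-Cre library and the highest in a control library. The log2 fold change, Nr3c1 Foxp3-Cre minus control and also called the log2 difference here, was -0.11 (SE, the standard error, 0.16, limma unadjusted p = 0.535), and its 95% confidence interval ran from -0.47 to 0.26. That interval still allows a 1.20-fold higher level as well as a lower one. Without Nr3c1 Foxp3-Cre replicate 2 the log2 difference was 0.030.

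*Nt5e* (ENSMUSG00000032420.8, chromosome 9 of mm10, from 88327197 to 88372092) encodes the enzyme that completes the conversion to adenosine. Its levels were 5.72, 6.36 and 6.60 log2 CPM in control replicates 1, 2 and 3 and 6.81, 6.85 and 6.68 in the Nr3c1 Foxp3-Cre replicates. The lowest Nr3c1 Foxp3-Cre value exceeded the highest control value, that of control replicate 3, by a narrow margin. The means were 6.22 ± 0.46 log2 CPM (SD, n = 3) in control and 6.78 ± 0.088 (SD, n = 3) in GR-deficient Tregs, or geometric means of 74.7 and 110.0 CPM. The difference of 0.56 (SE 0.20, 95% confidence interval 0.11 to 1.01) was larger than either SD. Its unadjusted p was 0.0196 by limma and its adjusted p was 1.0, and the exact two-sided permutation test gave p = 0.1, the smallest that 3 libraries against 3 allow. Control replicate 1, the lowest library, decided much of its size: without it the log2 difference was 0.30 (limma unadjusted p = 0.0370). Without Nr3c1 Foxp3-Cre replicate 1 or 2 the unadjusted p by limma was 0.0544 or 0.0530.

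The distance between the transcripts of both enzymes can be read within each library. *Nt5e* minus *Entpd1* on the log2 CPM scale, with no correction for gene length, was 0.023, 0.21 and 0.59 in control replicates 1, 2 and 3. It was 0.90, 1.28 and 0.64 in the Nr3c1 Foxp3-Cre replicates, so the groups did not overlap, with control replicate 3 and Nr3c1 Foxp3-Cre replicate 3 close together. The mean difference between groups was 0.66. It is the log2 difference of *Nt5e* less that of *Entpd1*, and *Nt5e* alone already separated the groups, so it is not a separate result. No share over other pairs of genes was computed.

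GR is a DNA-binding receptor, and its best known element pairs the half-site AGAACA with its reverse complement TGTTCT across a spacer, as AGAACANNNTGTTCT. RefSeq windows of 300 bases around start sites (250 before and 50 after, GRCm38.p6, the assembly that mm10 names) matched 8 of the 9 genes in 18 windows, with *Adora2a* the one not matched. The half-site was searched on both strands. It was in 2 of the 18 windows, against 19.0% of 32851 windows of all genes, and the full element was in none of the 18 and in 3 of all windows. The windows of the CD39 and CD73 genes are shown because these enzymes act in sequence on ATP. The first *Entpd1* window is chr19:40612116-40612415 and the *Nt5e* window is chr9:88327359-88327658, both on the plus strand and printed 5′ to 3′. Both are in lower case throughout because neither holds the half-site.
Entpd1 promoter: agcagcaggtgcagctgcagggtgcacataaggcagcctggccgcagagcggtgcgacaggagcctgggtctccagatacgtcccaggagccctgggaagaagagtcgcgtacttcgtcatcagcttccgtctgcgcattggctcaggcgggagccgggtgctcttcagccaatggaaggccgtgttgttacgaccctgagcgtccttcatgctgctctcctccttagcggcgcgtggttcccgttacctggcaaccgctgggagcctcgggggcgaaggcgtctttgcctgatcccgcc
Nt5e promoter: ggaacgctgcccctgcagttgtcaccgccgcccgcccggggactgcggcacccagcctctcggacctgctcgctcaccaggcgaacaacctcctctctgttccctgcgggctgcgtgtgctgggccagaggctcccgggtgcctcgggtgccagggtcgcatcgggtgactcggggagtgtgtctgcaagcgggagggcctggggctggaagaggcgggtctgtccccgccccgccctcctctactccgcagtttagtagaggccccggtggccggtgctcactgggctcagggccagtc

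Adenosine sensing rested on a single well-expressed receptor transcript. *Adora2a* (ENSMUSG00000020178.6, chromosome 10 of mm10, from 75316877 to 75334784) encodes the cAMP-raising receptor that carries most of the adenosine response of T cells. It was at 5.81, 5.83 and 6.19 log2 CPM in control replicates 1, 2 and 3 and at 5.69, 5.44 and 5.63 in the Nr3c1 Foxp3-Cre replicates. All 3 Nr3c1 Foxp3-Cre libraries were below all 3 control libraries. The log2 difference was -0.36 (SE 0.14, 95% confidence interval -0.67 to -0.043), larger than the SD of 0.21 in control and 0.13 in Nr3c1 Foxp3-Cre libraries. Its unadjusted p was 0.0302 by limma, its adjusted p was 1.0 and its exact two-sided permutation p was 0.1. Without control replicate 3, the highest library, it was -0.24 (limma unadjusted p = 0.151), and without Nr3c1 Foxp3-Cre replicate 2 or 3 the unadjusted p by limma was 0.101 or 0.0526. *Adora2b*, the lower-affinity receptor, lay between 0.47 and 1.46 log2 CPM in the 6 libraries and overlapped between groups. Those 2 of the 4 adenosine receptors had values.

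For the 4 genes of the 9 that are grouped under clearance, control and Nr3c1 Foxp3-Cre libraries overlapped. *Dpp4* is placed among them by a role described in human cells, as given below. *Slc29a1* (ENSMUSG00000023942.15), on chromosome 17 from 45585200 to 45599606, encodes the equilibrative transporter ENT1. It was at 7.37, 7.25 and 7.44 log2 CPM in control and 7.40, 7.49 and 7.54 in Nr3c1 Foxp3-Cre libraries. Of all 9 genes it varied least, with a range of 0.30 over the 6 libraries, and 1 control library reached into the range of the other group. The log2 difference was 0.13 (SE 0.096, 95% confidence interval -0.088 to 0.34, limma unadjusted p = 0.214).

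*Adk* (ENSMUSG00000039197.10), on chromosome 14 from 21052574 to 21448569, encodes adenosine kinase, which returns adenosine to AMP inside the cell. It was at 7.31, 6.93 and 7.17 log2 CPM in control and 7.13, 7.36 and 7.13 in Nr3c1 Foxp3-Cre libraries, with the groups interleaved. *Ada* (ENSMUSG00000017697.3), on chromosome 2 from 163726584 to 163750239, encodes adenosine deaminase, which turns adenosine into inosine. It was at 4.40, 3.91 and 4.05 log2 CPM in control and 3.88, 3.91 and 4.43 in Nr3c1 Foxp3-Cre libraries. In each group 1 library stood at 4.40 or 4.43 and the other two between 3.88 and 4.05, and the difference of -0.045 (SE 0.22) was far inside the spread. For *Adk* the log2 difference was 0.068 (SE 0.12, 95% confidence interval -0.21 to 0.35).

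*Dpp4* (ENSMUSG00000035000.8), on chromosome 2 from 62330073 to 62412231, encodes CD26, a surface peptidase that in human cells also anchors adenosine deaminase. It was at 5.35, 5.68 and 5.37 log2 CPM in control and 5.56, 5.62 and 5.26 in Nr3c1 Foxp3-Cre libraries. The group means differed by 0.014 (SE 0.15, 95% confidence interval -0.32 to 0.35), the smallest difference of the 9. The 2 windows with a GR half-site belonged to this gene and to 1 of the 8 windows of *Slc29a1*. They are shown for that reason, though no value here bears on binding, on the minus strand and printed 5′ to 3′, with the half-site in capitals: chr2:62412182-62412481 for *Dpp4* and chr17:45597102-45597401 for *Slc29a1*.
Dpp4 promoter: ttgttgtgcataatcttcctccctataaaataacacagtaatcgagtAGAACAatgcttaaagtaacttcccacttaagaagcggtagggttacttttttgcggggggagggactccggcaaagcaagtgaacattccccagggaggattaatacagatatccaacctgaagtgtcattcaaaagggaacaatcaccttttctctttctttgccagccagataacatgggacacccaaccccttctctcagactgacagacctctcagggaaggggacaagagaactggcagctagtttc
Slc29a1 promoter: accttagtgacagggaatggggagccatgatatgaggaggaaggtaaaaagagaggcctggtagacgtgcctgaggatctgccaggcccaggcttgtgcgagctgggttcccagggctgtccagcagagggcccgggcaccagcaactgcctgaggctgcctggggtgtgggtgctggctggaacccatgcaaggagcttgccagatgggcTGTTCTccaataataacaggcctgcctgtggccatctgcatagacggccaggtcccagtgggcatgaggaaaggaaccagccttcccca

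The ATP channels lie side by side on chromosome 5. *P2rx7* (ENSMUSG00000029468.17), from 122643911 to 122691432, encodes P2X7, which opens at high ATP and, on mouse T cells, also after modification by the NAD-using enzyme ART2.2. Its neighbor *P2rx4* (ENSMUSG00000029470.15), from 122707544 to 122729738, begins 16111 bases after its end and encodes P2X4, which responds to lower ATP. *P2rx7* was at 3.53, 4.08 and 4.44 log2 CPM in control and 4.32, 4.14 and 4.16 in Nr3c1 Foxp3-Cre libraries. The 3 Nr3c1 Foxp3-Cre libraries lay within a range of 0.17 and the control libraries spread over 0.91, around them on both sides. The log2 difference was 0.19 (SE 0.24, 95% confidence interval -0.34 to 0.73), smaller than the SD of 0.46 between control libraries. *P2rx4* was at 6.42, 5.82 and 5.97 log2 CPM in control and 5.91, 6.12 and 5.99 in Nr3c1 Foxp3-Cre libraries, and again the control libraries enclosed the others. Its log2 difference was -0.062 (SE 0.16, 95% confidence interval -0.42 to 0.30). Control replicate 1 was the lowest library of all 6 for *P2rx7* and the highest for *P2rx4*. Without it the log2 difference was -0.049 for *P2rx7* and 0.11 for *P2rx4*, so that both signs turned.

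Levels of different genes were compared as log2 CPM per kb of exon, with the union of GENCODE M21 exons as the length. *Slc29a1* was highest, at 5.41 ± 0.10 (SD, n = 6), and its lowest library was above the highest library of any other of the 9. *Adora2a* at 4.15 ± 0.25 and *Adk* at 4.08 ± 0.15 followed and could not be ordered on this length, since each was above the other in 3 of 6 libraries. *Entpd1* at 3.41 ± 0.22, *Nt5e* at 3.40 ± 0.42, *P2rx4* at 3.23 ± 0.21, *Ada* at 3.09 ± 0.25 and *Dpp4* at 2.81 ± 0.17 formed a run in which each overlapped its neighbor. *P2rx7* was lowest, at 1.53 ± 0.31, and did not reach the range of *Dpp4*. With the longest annotated transcript as the length, *Slc29a1* was still highest and *P2rx7* lowest, but the order between them changed. *Adk* then came to 5.09, and its lowest library, at 4.84, was above the highest library of *Adora2a*, at 4.81. *Nt5e* came to 4.50, *Adora2a* to 4.39 and *Entpd1* to 3.82. The order of *Adk* and *Adora2a*, and that of the CD73 and CD39 transcripts, therefore rests on the length chosen. No intervals for counting error are given, because the read depth is unknown. The libraries also carried RNA of other cells, as given below, and its part in this order was not tested.

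**Figure D2:**
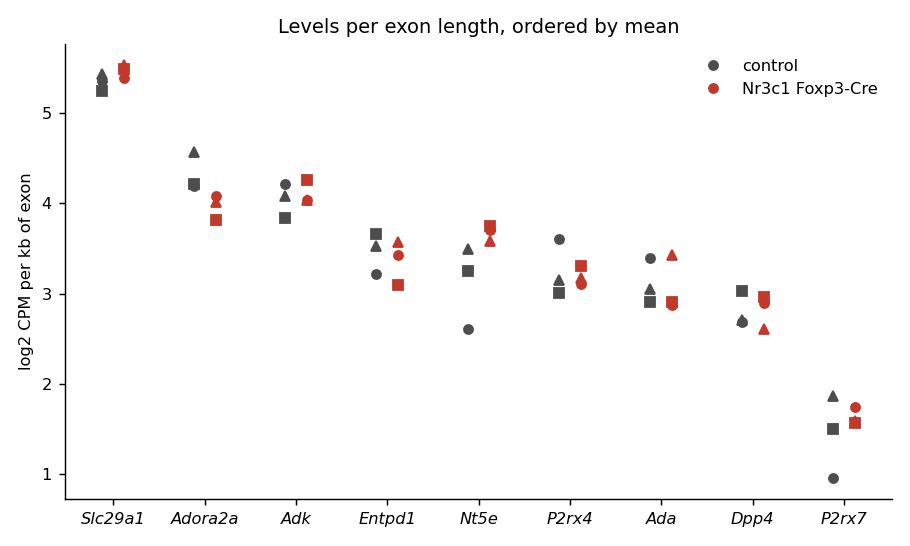
Log2 CPM per kb of exon (y axis) for the 9 genes in order of their mean, with each control (gray) and Nr3c1 Foxp3-Cre (red) library as a point and circles, squares and triangles for replicates 1, 2 and 3. Slc29a1 stands above and P2rx7 below all others, and the 5 genes from Entpd1 to Dpp4 overlap in a run.

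The wider pathway was taken from 6 lists that hold the 9 genes and their relatives: enzymes of nucleotide hydrolysis, adenosine receptors, adenosine clearance and transport, nucleotide receptors, ATP release, and the cAMP cascade. Of 103 genes listed, 69 had values. *Entpd4* and *Entpd4b* had identical values in all 6 libraries, so they were counted once and their reads cannot be told apart. Of the 68 counted, 0 passed limma's adjusted test, and 8 had an unadjusted p under 0.05, 3 of them higher and 5 lower. That is 11.8% against 3.26% of all genes. The 8 include *Nt5e* and *Adora2a* themselves. They also include *Entpd4* and *P2ry10*, whose place in the pathway is doubtful as given below, and *Bst1* and *P2ry6* at low levels. The groups did not overlap for 11, or 16.2%, against 7.41%. The lists, too, were chosen with earlier results of these data known, so these shares are not an independent comparison. Without the 9 genes, 6 of 59 had an unadjusted p under 0.05 and 9 had groups apart. The median log2 difference of the 68 was 0.0070, with 35 higher and 33 lower by sign.

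The gene of the lists with the smallest p was *Pde8a*, a phosphodiesterase that degrades cAMP, the messenger downstream of adenosine receptors. It was at 2.97, 3.25 and 3.41 log2 CPM in control and 4.0, 4.07 and 4.15 in Nr3c1 Foxp3-Cre libraries. The lowest Nr3c1 Foxp3-Cre library was above the highest control library by more than either group's range. Its log2 difference was 0.87 (SE 0.20, limma unadjusted p = 0.00177, adjusted p = 0.606), or 1.82-fold higher. Of the 22 cAMP cascade genes with values it was the one with an unadjusted p under 0.05. *Adcy6*, an adenylyl cyclase, was the other gene of the list whose groups did not overlap (log2 fold change -0.52, SE 0.42, limma unadjusted p = 0.245), at a level of at most 1.16 log2 CPM. *Gnas*, which encodes the stimulatory G protein that couples the receptor to adenylyl cyclase and had the largest log2 CPM of the list, not corrected for gene length, was at 10.3 log2 CPM in both groups, with a log2 difference of 4.3e-05.

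Among enzymes of nucleotide hydrolysis, 12 genes were counted, and *Nt5e* had the largest log2 CPM, a scale not corrected for gene length. *Entpd4*, which acts inside the secretory pathway, was lower by 0.46 (SE 0.16, limma unadjusted p = 0.0191), with the groups apart. *Entpd5*, which acts in the endoplasmic reticulum, was higher by 0.23 (SE 0.11, limma unadjusted p = 0.0686), also with the groups apart. *Bst1*, an NAD-using ectoenzyme also found on myeloid and stromal cells, had a log2 difference of -1.88 (SE 0.59, limma unadjusted p = 0.0101) at levels between -1.54 and 1.88 log2 CPM. Its groups were apart as well.

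Among genes of adenosine clearance and transport, 19 had values. *Slc29a2*, which encodes ENT2, the relative of ENT1, was at 0.78, 0.86 and 1.05 log2 CPM in control and 2.23, 1.85 and 1.39 in Nr3c1 Foxp3-Cre libraries. The groups were apart, with a log2 difference of 0.93 (SE 0.35, limma unadjusted p = 0.0274). *Ahcy*, which splits S-adenosylhomocysteine into adenosine and homocysteine, was lower by 0.17 (SE 0.10), and its relative *Ahcyl2* was higher by 0.17 (SE 0.099). The groups were apart for both, at unadjusted p of 0.119 and 0.121 by limma.

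Of 18 nucleotide receptor and ART2 genes listed, 7 had values. *P2ry10*, with the largest log2 CPM of them, not corrected for gene length, is grouped with nucleotide receptors by name but is known to respond to lysophosphatidylserine. It was lower by 0.47 (SE 0.17, limma unadjusted p = 0.0245) with overlapping groups. *P2ry6*, a UDP receptor typical of macrophages, was lower by 0.99 (SE 0.40, limma unadjusted p = 0.0357) at levels between -0.13 and 1.34 log2 CPM. *Art2b*, which encodes ART2.2, was at 2.76, 3.09 and 3.84 log2 CPM in control and 2.61, 2.65 and 3.25 in Nr3c1 Foxp3-Cre libraries, overlapping between the groups. Of 6 ATP release genes with values, 0 had an unadjusted p under 0.05 by limma and all overlapped, with *Panx1*, the ATP release channel, at 6.83 log2 CPM, the largest value of the list without correction for gene length.

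**Figure D3:**
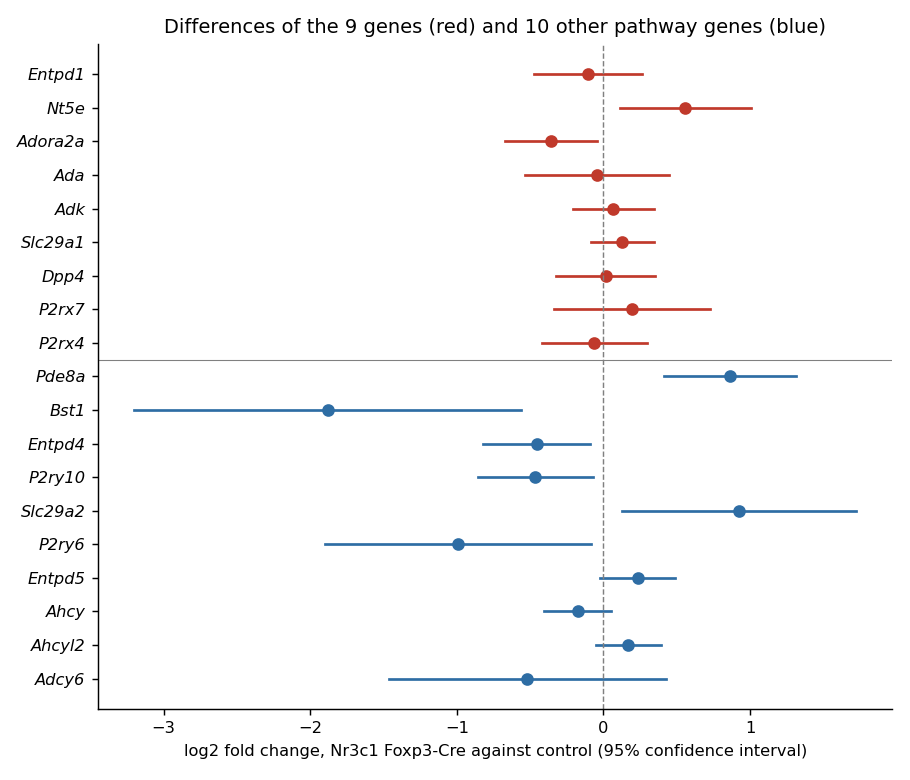
Log2 fold change of Nr3c1 Foxp3-Cre against control Tregs (x axis, 0 dashed) with its 95% confidence interval for the 9 genes (red) and for 10 other pathway genes (blue) that had an unadjusted p under 0.05 or groups that did not overlap. The intervals of Nt5e and Adora2a lie on opposite sides of 0, those of the other 7 red genes span it, and none of the genes drawn passed the adjusted test.

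The libraries carried RNA of other cells beside that of Tregs. The targeted gene *Nr3c1* and the glucocorticoid-induced *Tsc22d3* were both lower in the Nr3c1 Foxp3-Cre libraries without overlap, with log2 fold changes of -1.38 (limma adjusted p = 0.120) and -1.56 (limma adjusted p = 0.0342). All 10 genes of the Treg list, which includes general T cell genes such as *Cd4* and *Cd3e*, had values and overlapped between the groups. They were led by *Tnfrsf18* in log2 CPM, without correction for gene length here and for the lists that follow. *Foxp3* itself was at 3.39 to 4.47 log2 CPM. The 10 summed to 4554 to 6257 CPM in control and 4677 to 5405 CPM in Nr3c1 Foxp3-Cre libraries. All 8 melanoma markers were present, with summed levels of 3598 to 9692 CPM in control and 3970 to 10094 CPM in Nr3c1 Foxp3-Cre libraries, led by *Dct*. The 12 myeloid markers, led by *Lyz2*, summed to 524 to 875 CPM in control and 447 to 886 CPM in Nr3c1 Foxp3-Cre libraries. All 12 were lower by sign, with a median log2 difference of -0.46, and 0 had an unadjusted p under 0.05 by limma. The 6 fibroblast markers, led by *Col3a1*, summed to 189 to 463 CPM in control and 79.2 to 167 CPM in Nr3c1 Foxp3-Cre libraries, without overlap. All 6 were lower by sign, 3 had an unadjusted p under 0.05 by limma, and the groups were apart for *Col1a1* (log2 fold change -1.87) and *Col1a2* (-1.69). Of the endothelial list 3 of 5 markers had values. *Pecam1*, the highest, was higher by 0.28 (limma unadjusted p = 0.0436), with the groups apart. *Kdr* (log2 difference -0.13) and *Vwf* (0.11) overlapped between the groups, as did the mean of the endothelial markers. Of the dendritic cell list 3 of 6 had values (*Xcr1* highest), of the B cell list 1 of 4 (*Cd79b*), and of the CD8 and NK list 1 of 5 (*Cd8b1*). In these bulk samples, fewer cells of a type and less RNA per cell cannot be told apart.

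**Figure D4:**
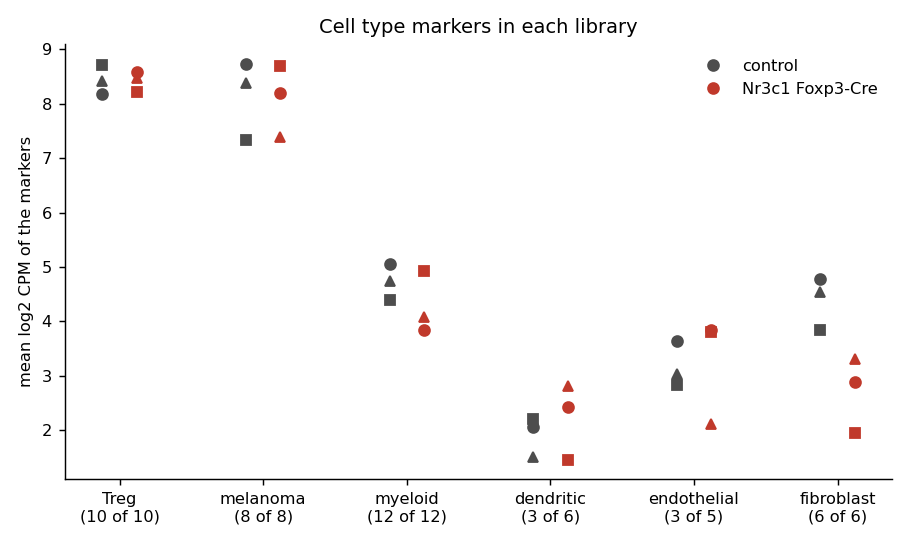
Mean log2 CPM (y axis) of the markers of each cell type with at least 3 markers measured, with each control (gray) and Nr3c1 Foxp3-Cre (red) library as a point, circles, squares and triangles for replicates 1, 2 and 3, and the number of markers with values in brackets. The fibroblast markers separate the groups, while those of the other cell types overlap.

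These levels bear on the genes of the pathway that other cells express too. CD73 is common on fibroblasts and endothelium, CD39 and P2X4 on macrophages. Per the labels the sort used CD45, CD4 and CD25 after a Percoll step against tumor cells. Per the methods it also left out cells stained for CD11b, CD11c, B220, NK1.1 or TCR-γδ. Markers of myeloid, fibroblast, endothelial and melanoma cells were still measured in the libraries, as given above. The part of such RNA in the values above was not tested beyond the fits given here. Control replicate 1, the lowest for *Nt5e* and *P2rx7*, had the lowest mean of the genes of the Treg list (8.18 log2 CPM). Its means of melanoma (8.74), myeloid (5.06) and fibroblast markers (4.79) were the highest. When each library was centered on its mean of *Cd4*, *Cd3d*, *Cd3e* and *Cd3g*, the log2 difference of *Nt5e* was 0.59 (SE 0.18) and that of *Adora2a* was -0.32 (SE 0.17, limma unadjusted p = 0.0930). The mean of the fibroblast markers itself separates the groups, with a difference of -1.68, opposite in sign to that of *Nt5e*. With that mean as a covariate, the log2 difference was 0.17 (SE 0.40) for *Nt5e* and -0.13 (SE 0.29) for *Adora2a*. Genotype and fibroblast RNA therefore cannot be told apart in this fit. With the mean of the myeloid markers as a covariate *Entpd1* had a log2 difference of -0.31 (SE 0.13, limma unadjusted p = 0.0412, adjusted p = 0.578). In the same fit *Nt5e* was at 0.48 (limma unadjusted p = 0.0559) and *Adora2a* at -0.44 (limma unadjusted p = 0.0158).

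**Figure D5:**
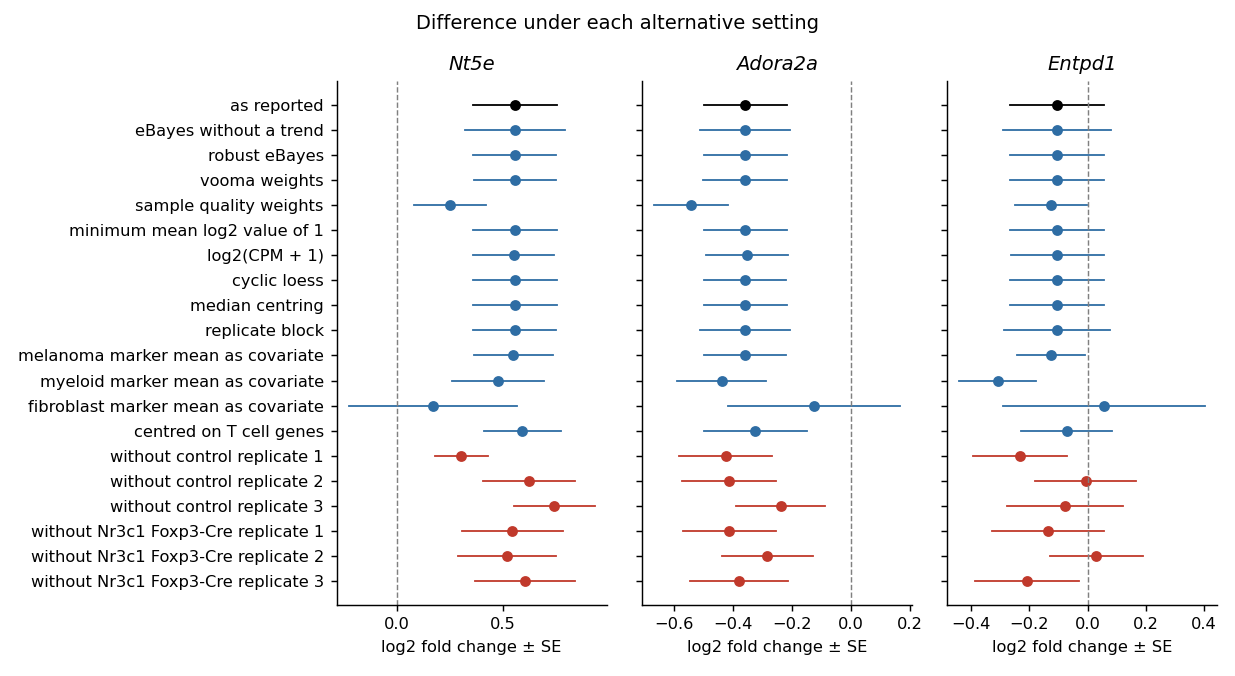
Log2 fold change with its SE (x axis, 0 dashed, one scale per panel) of Nt5e, Adora2a and Entpd1 as reported (black), under 13 other settings (blue) and with each library left out (red). Nt5e stays above 0 and Adora2a below 0 in all 19 alternatives, with the smallest sizes under the fibroblast covariate, while Entpd1 lies near 0 and crosses it in 2 of 19. Since the groups of Nt5e and Adora2a do not overlap, many of the settings could not turn their sign.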

How the data were processed

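Bulk RNA-Seq had been run on 6 libraries of sorted tumor Tregs, which were grouped by genotype from the sample labels. Per the study's methods, the authors used Cutadapt for trimming, STAR on mm10 for alignment, RSEM with GENCODE M21 for counting, a filter at 1 CPM, quantile normalization and limma-voom. The deposited table holds log2 CPM values on that normalized scale for 12153 genes, so each value depends on a gene's rank within its library. Counts were not used here. Voom weights were therefore not recomputed, read depth is unknown, and precision is limited by the number of libraries.

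The whole table was fitted in limma 3.58.1 (R 4.3.3) with lmFit and eBayes, a trend of variance on mean, and genotype alone as the predictor. Benjamini-Hochberg adjustment covered all genes, with 0.05 as the threshold. An exact permutation test, two-sided, was added for single genes (SciPy 1.17.1, Python 3.11.15), and the fit was tested on simulated data. The library kit does not mark strand. Exons of *Slc29a1* share 275 bases with antisense *Gm17080*, those of *Dpp4* 232 bases with antisense *Gm13561* and those of *P2rx7* 119 bases with *Mir8115*.

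The members and lists were chosen with earlier results of these data known. Named genes are the 9 members, pathway genes with an unadjusted p under 0.05 or groups without overlap (at most 15), the highest gene of each list, the highest markers and those whose groups were apart, *Nr3c1* and *Tsc22d3*, and the 2 genes most like each member. *Foxp3*, *Adora2b*, *Art2b*, *Kdr* and *Vwf* were named after their values were seen. Alternatives for the fit were no variance trend, robust eBayes, weights from vooma or per sample, a floor of 1 on the mean log2 value, log2(CPM + 1), cyclic loess, median centering, a replicate block, and melanoma or myeloid marker means as covariates. Another gene length and the omission of each library in turn were also tried. The fibroblast covariate and centering on T cell genes were added after seeing the data. *Nt5e* minus *Entpd1* was not among the planned results.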

Additional observations from a re-analysis of the deposited data

How the results depend on the processing

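*Nt5e* was higher and *Adora2a* lower in all 19 alternatives, with log2 fold changes of 0.17 to 0.75 and -0.54 to -0.13, adjusted p from 0.596 and 0.182 upward, and an unadjusted p under 0.05 in 13 of 19 for each. Many of these alternatives could not turn the sign. No trend, robust eBayes, vooma weights, the minimum mean value and the replicate block left both log2 fold changes as reported. Since the groups of both genes do not overlap, sample weights, log2(CPM + 1) and the omission of a library must keep the sign. Without one library they ranged from 0.30 to 0.75 and from -0.42 to -0.24. *Slc29a1* kept its sign in all 19.

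Signs turned for small differences. With the fibroblast covariate the log2 fold change was 0.056 for *Entpd1*, 0.56 for *Ada*, -0.46 for *Dpp4* and 0.11 for *P2rx4*. With sample quality weights, which gave control replicate 3 a weight of 7.47, it was 0.029 for *Ada*, -0.14 for *P2rx7* and 0.0094 for *P2rx4*, and with the myeloid covariate 0.10 for *P2rx4*. Without one library it ranged from -0.23 to 0.030 for *Entpd1*, -0.22 to 0.094 for *Ada*, -0.036 to 0.16 for *Adk*, -0.055 to 0.12 for *Dpp4*, -0.049 to 0.41 for *P2rx7* and -0.19 to 0.11 for *P2rx4*.

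At an unadjusted p under 0.05, the count among the 9 genes of 1 higher and 1 lower became 0 and 0 without a trend and with the fibroblast covariate, 0 higher with sample quality weights, 0 higher and 2 lower with the myeloid covariate, 0 lower when centered on T cell genes, and 0 to 1 in each direction without one library. In the wider lists 3 higher became 1 with the myeloid and 0 with the fibroblast covariate, and 1 to 4 without one library. There 5 lower became 3 without a trend and with the minimum mean value, which leaves out *Bst1* and *P2ry6* (means of 0.32 and 0.60 log2 CPM). The 5 became 2 with the replicate block and centered on T cell genes, 0 with the fibroblast covariate, and 2 to 4 without one library. Over all genes at an adjusted p under 0.05, 1 higher and 6 lower became 0 and 0 without a trend, with the replicate block and with the fibroblast covariate, 7 and 12 with sample quality weights, and 4 and 14 with the melanoma covariate. Higher genes were 2 with vooma weights and 0 with the myeloid covariate, and lower genes were 3 when centered on T cell genes. Without one library 0 to 3 were higher and 0 to 5 lower. Apart from the genes left out by the minimum mean value, the cause of these changes was not tested.

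With the replicate number as a block, limma's unadjusted p was 0.0252 for *Nt5e* and 0.0497 for *Adora2a*. Deviations of same-numbered libraries had correlations of -0.117, -0.329 and -0.0246, so the numbers were not taken to pair the libraries. With the longest transcript as the length, log2 CPM per kb was 6.27 for *Slc29a1*, 5.09 for *Adk*, 4.50 for *Nt5e*, 4.39 for *Adora2a*, 4.08 for *P2rx4*, 3.82 for *Entpd1* and 3.08 for *Dpp4*. What depth limits for *Slc29a2*, *Bst1* and *P2ry6*, all at low levels, cannot be given without counts.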

Other observations

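The genes whose pattern over the 6 libraries was most like that of each member were found by Pearson's r among 9290 genes with a mean of at least 3 log2 CPM. For *Nt5e* they were *Rcan3* (r = 0.993) and *Tmem131l* (0.992), for *Entpd1* *Ly6e* (0.996) and *Mta3* (0.990), and for *Adora2a* *Tprn* (0.978) and *Chmp2b* (0.976). For *P2rx7* they were *Trbc2*, a constant gene of the T cell receptor beta chain (0.984), and *Slc14a1* (0.973), and for *P2rx4* *Aen* (0.991) and *Rtp4* (0.987). For the genes grouped under clearance they were *Cmtr1* (0.986) and *Dnlz* (0.981) with *Ada*, and *Exog* (0.993) and *Lama4* (0.992) with *Adk*. They were *Gosr2* (0.979) and *Ppm1f* (0.976) with *Slc29a1*, and *Maea* (0.974) and *Ldlrad4* (0.968) with *Dpp4*. These describe 6 libraries that share their normalization and the RNA of other cells, and no test was made.

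Among the members themselves, *P2rx7* was most like *Nt5e* (r = 0.869 over 6 libraries), and *Adk* ran most against *Entpd1* (r = -0.923). Control replicate 2, with the lowest mean of melanoma markers (7.33 log2 CPM), had the lowest *Adk* and the highest *Entpd1* of all libraries. Nr3c1 Foxp3-Cre replicate 2, with the highest melanoma mean of its group (8.69), had the highest *Adk* and the lowest *Entpd1*. The part of melanoma RNA in these correlations was not tested. The neighboring channel genes *P2rx7* and *P2rx4* ran against each other (r = -0.794), with control replicate 1 at the opposite end for each.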
